A study of Mus musculus with 15 samples.

Results

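Small GTPases of the Rab, Arf and Arl families sort membrane cargo in the retina, and 58 of their genes or close partners lay nearest to a site bound by NRL in these data. NRL is the Maf-family basic leucine zipper transcription factor that directs photoreceptor precursors to become rods. The members were chosen by gene symbol: every NRL peak whose assigned gene is a Rab, a Rab regulator or partner, an Arf, an Arf regulator named Arfg, or an Arl, with Arl3 left out. This gave 72 peaks of 8996, and 58 genes of 6860. A total of 48 genes carried 1 peak, 7 carried 2, 2 carried 3, and Rab2a carried 4. The authors' annotation assigns a peak to a gene by position, so a distant peak need not act on the gene it is named for.

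Binding was measured by CUT&RUN, in which an antibody against NRL directs a nuclease to its target in permeabilised cells, and the released DNA is sequenced. Each experiment used 250000 dissociated cells from whole retinas of C57BL/6J mice, with no genetic change or drug named in the labels, taken on postnatal day 2, 4, 10 or 28 (P2 to P28). Of 15 labelled libraries (3 for P2, 4 for each later age), 8 have values here, 2 per age, numbered 1 and 4 for P10 and 3 and 4 for the rest. The remaining 7 were not analysed here, and no library with a control antibody was used.

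Rab proteins switch between a GTP-bound form on membranes and a GDP-bound form in the cytosol, and each marks a class of vesicle or organelle. Arf proteins recruit coats and lipid enzymes at the Golgi and the cell surface, and several Arl proteins work at the primary cilium. A rod renews its outer segment, a modified cilium, by sending membrane carriers from the Golgi to the cilium base, and Rab8, Rab11, Arf4 and Arl family proteins are known for work on that route. Exchange factors load these GTPases with GTP, GTPase-activating proteins turn them off, and geranylgeranyl transferase attaches the lipid that holds a Rab in a membrane.

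The promoter sequences of Rab40c, Rab43 and Rab11b are shown because these were the Rab GTPase genes with the highest NRL signal. In each, the authors' annotation placed a peak over a start site. The Rab40c peak begins at base 25919726, inside the stretch below, and so does not reach the RefSeq start used here. Each line holds the 250 bases before the transcription start, 5′ to 3′, from RefSeq on GRCm38.p6. Capitals mark TGCTGA, the core of a Maf recognition element, and GGATTA, a core of the type bound by the photoreceptor homeodomain factor CRX.
Rab40c, chr17:25919715-25919964, minus strand: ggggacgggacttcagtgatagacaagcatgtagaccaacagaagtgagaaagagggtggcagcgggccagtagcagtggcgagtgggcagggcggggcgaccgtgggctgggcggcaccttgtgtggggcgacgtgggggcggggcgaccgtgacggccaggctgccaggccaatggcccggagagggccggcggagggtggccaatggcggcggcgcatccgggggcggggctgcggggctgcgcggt
Rab43, chr6:87812099-87812348, minus strand: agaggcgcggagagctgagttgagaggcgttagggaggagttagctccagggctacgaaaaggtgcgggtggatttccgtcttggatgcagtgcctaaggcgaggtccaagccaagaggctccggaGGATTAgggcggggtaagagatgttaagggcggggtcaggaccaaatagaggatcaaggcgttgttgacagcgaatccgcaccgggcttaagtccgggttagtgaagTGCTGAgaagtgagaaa
Rab11b, chr17:33760487-33760736, minus strand: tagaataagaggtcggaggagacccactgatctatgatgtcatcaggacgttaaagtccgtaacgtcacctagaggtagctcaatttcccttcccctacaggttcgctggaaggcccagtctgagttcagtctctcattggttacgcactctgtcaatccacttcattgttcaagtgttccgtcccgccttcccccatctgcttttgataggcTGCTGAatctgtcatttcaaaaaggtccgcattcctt
The Rab43 stretch held GGATTA at -124 to -119 and TGCTGA at -17 to -12, with the start base as 0. Rab11b held TGCTGA at -37 to -32. The Rab40c stretch, at the strongest member peak, held neither sequence, nor TGANTCA, the core that AP-1 dimers recognise. That peak reaches to base 25920257, beyond the stretch, and the part outside the promoter window was not searched. Motifs were searched on both strands, and a TGCTGA may overlap a TGANTCA.

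Over the 41 member genes whose 300-base promoter window (250 bases before to 50 after the start) lay under their own peak, 7 windows (17.1%) held TGCTGA, against 16.0% of the 4310 windows under any peak and 19.1% of all 27025. None of the 41 held TGANTCA, against 4.04% under any peak and 7.93% of all. GGATTA was in 3 (7.32%), against 6.61% and 7.16%. The member windows were rich in G and C, with a median of 63.3%, against 61.7% under any peak and 52.7% over all. In motif content the member promoters thus lay near the other bound promoters, and these shares are descriptions of the windows.

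The libraries differed in how much of their reads fell in peaks. Reads in peaks ranged from 49430 to 227692 per library. As a percentage of the library scale they came to 0.986 and 0.940% in the P2 libraries, 1.09 and 2.15% in those of P4, 3.08 and 2.84% in those of P10, and 1.52 and 1.51% in those of P28. P4 replicate 4 stood apart from P4 replicate 3. Values are given in RPKM, reads scaled to the length of the peak and to the library, and 3 reads at the median peak width came to 1.16 to 1.77 RPKM. Between the libraries of an age, values over all peaks correlated with r of 0.599 (P2), 0.736 (P4), 0.887 (P10) and 0.707 (P28). All 6 rod marker genes reported here (Gnat1, Pde6b, Sag, Cnga1, Nrl and Nr2e3) had a peak, and none of 4 Müller glia, 5 microglia and vessel, or 3 pigment epithelium genes had one. Cone and bipolar cell genes were not in these lists, so the counts do not show that peaks are confined to rod genes. In whole retina, the share of cells that are rods and the binding in each rod cannot be told apart.

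A peak was assigned to 57 of the 120 protein-coding genes of the family (47.5%), against 6251 of 21896 protein-coding genes (28.5%). With the peak within 1000 bp of the start site the counts were 46 of 120 (38.3%) and 4522 of 21896 (20.7%). The family and the full set of genes were not matched for expression or promoter base content, and the difference was not tested. Genes without a peak included Rab27a, which tethers secretory granules, Rab3ip (Rabin8), the exchange factor of Rab8, and Rab11fip3, a Rab11 effector. Arf3, Arf5, Arf6, Arl1, Arl8a and Arl8b also had none.

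Member peaks lay mostly at promoters. Of the 72, 49 (68.1%) were within 1000 bp of the start site, against 56.8% of all peaks, and 42 (58.3%) overlapped it, against 45.8%. Among Rab GTPases 25 of 32 peaks were that close, among Rab regulators and partners 10 of 17, among Arf genes 4 of 5 and among Arl genes 9 of 15. Of the 3 peaks given to Rab10os, an antisense RNA at the Rab10 locus, 1 was. The counting is not known to use strand, and CUT&RUN reads carry none, so the Rab10os promoter peak tells nothing of which gene it serves. Another gene's promoter window also lay under 6 of the member peaks, those of Rab23, Arl5b, Rab5if, Rab6a, Rabl3 and Rab26. The peak named for Rab6b lay inside an intron of Slco2a1.

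The authors called 1 list of peaks per age. The P2 list held 13 member peaks (18.1%, against 13.5% of all peaks), the P4 list 31 (43.1%, against 35.0%), the P10 list 61 (84.7%, against 83.2%) and the P28 list 37 (51.4%, against 38.6%). In all 4 lists were 10 member peaks (13.9%, against 7.41%): those of Rab1a, Rab8a, Rab11b, Rab14, Rab40c, Rab43, Rab3il1, Arf2 and Arl2bp, and Rabepk peak 2 (a gene's peaks are numbered along the chromosome). Of these, Rab1a serves transport out of the endoplasmic reticulum and Rab14 endosome sorting. The P10 list alone held 24 member peaks (33.3%, against 41.9%). The P28 list alone held 5, at Rab7, Rab11a, Rab23, Rabif (peak 2) and Arl4a (peak 1). Those of Rabif and Arl4a lay 24066 and 371664 bp from the start site. The promoter peak of Rabif was in the P10 list alone, and that of Arl4a in the P10 and P28 lists. The P4 list alone held 3, at Arfgef2, Rabep2 and Rab39, and the P2 list alone held Arl4d peak 1. Rab5a and Rab38 were listed at P2 and P4 and at no later age.

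Signal was highest at P10 at most members. The mean was highest at P10 at 57 of 72 member peaks (79.2%, against 70.4% of all peaks), at P28 at 11 (15.3%, against 18.2%), at P4 at Rab38, Rab39 and Rab5b, and at P2 at Arl4d peak 1. The median member peak had 2.24, 3.38, 5.63 and 4.32 RPKM from P2 to P28, and the median of all peaks had 2.17, 3.51, 6.27 and 3.81. Few reads stood behind most of these values. Over the 8 libraries a member peak held a median of 81 reads, from 13 to 1087, and the median per library was 4 reads in P2 replicate 4 and 18.5 in P10 replicate 4.

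**Figure D1:**
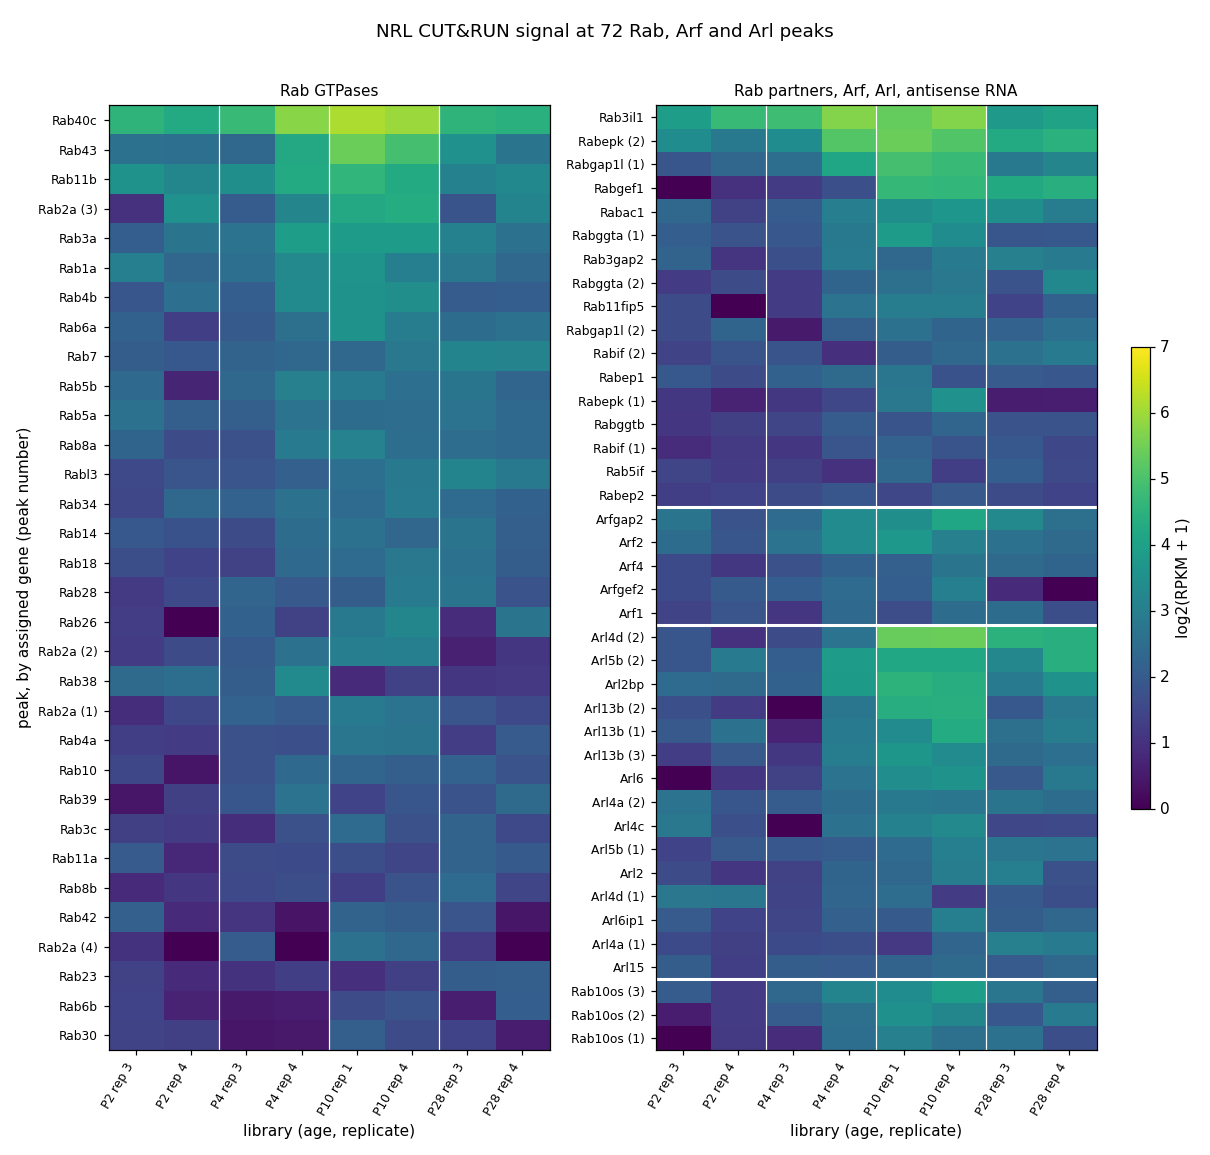
NRL signal at the 72 member peaks (rows, named by assigned gene with the peak number where a gene has several) in the 8 libraries (columns, by age and replicate), as log2(RPKM + 1). The left panel holds the Rab GTPases, and the right panel holds, from the top, Rab partners, Arf genes, Arl genes and the antisense RNA, each sorted by mean signal. Most rows are brightest in the P10 columns, while Rab38 is brighter in the P2 and P4 columns.

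The strongest member was Rab40c, a Rab with a SOCS box that serves a ubiquitin ligase, at 36.5 RPKM over the 8 libraries, the 62nd of all 8996 peaks. Its promoter peak (chr17:25919726-25920257) had 22.3 and 18.2 RPKM in the P2 libraries, 25.3 and 52.6 in those of P4, 69.6 and 61.2 in those of P10, and 22.4 and 20.6 in those of P28. The P10 libraries were above all others, and the P28 libraries lay with those of P2. Rab3il1, an exchange factor that acts on Rab proteins of exocytosis, ranked 94th at 29.7 RPKM, with its peak in intron 4 (chr19:10025576-10025787). It had 14.3 and 26.0 RPKM in the P2 libraries, 27.6 and 51.2 in those of P4, 39.4 and 51.2 in those of P10, and 12.4 and 15.4 in those of P28. P4 and P10 overlapped at this peak, and P28 lay below both. Rabepk peak 2 ranked 197th at 21.7 RPKM, Arl4d peak 2 ranked 321st at 16.8, Rab43 ranked 417th at 15.0 and Rab11b ranked 521st at 13.3. Rab11b, a GTPase of recycling endosomes, had 11.2 and 8.19 RPKM in the P2 libraries, 10.3 and 18.4 in those of P4, 23.5 and 18.3 in those of P10, and 7.45 and 8.70 in those of P28. Its P28 and P10 libraries were apart (8.08 ± 0.886 against 20.9 ± 3.69, SD, n = 2 each), yet that difference did not pass the test (adjusted p = 0.090).

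Between P10 and P4, signal rose at 8 member peaks (11.1%) and fell at 1 (1.39%), where 15.6% of all peaks rose and 1.51% fell. A change was called with limma at an adjusted p under 0.05, over all 8996 peaks. The peaks that rose belonged to Rabgef1, Arl4d, Arl13b, Rab43, Arl4c, Rabepk and Rab30, with 2 of them in Arl13b, and the one that fell belonged to Rab38. By role, 4 of 15 Arl peaks rose, 2 of 17 peaks of Rab regulators and partners, 2 of 32 Rab GTPase peaks and none of 5 Arf peaks. The median log2 change of the members was 0.75, against 0.73 over all peaks, and was 1.24 among the Arl peaks. Every P10 library was above every P4 library at 40 members, against 58.9% of all peaks, and below at 2, against 6.31%.

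Rabgef1, also known as Rabex-5, loads the early-endosome GTPase Rab5 with GTP. Its peak lay in intron 3, 5214 bp from the start site (chr5:130192434-130192622). It had 0 and 1.01 RPKM in the P2 libraries, 1.34 and 2.27 in those of P4, 24.2 and 23.8 in those of P10, and 18 and 19.9 in those of P28. Both later ages were far above both earlier ones. P10 averaged 24.0 ± 0.292 RPKM and P4 1.81 ± 0.653 (SD, n = 2 each), a log2 change of 3.17 ± 0.52 (SE, adjusted p = 0.00061) on the log2(RPKM + 1) scale, which understates the change of weak peaks.

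Arl4d, an Arf-like GTPase of the plasma membrane that recruits cytohesins, carried a pair of peaks that differed. Peak 2, intergenic and 2674 bp from the start (chr11:101668215-101668402), had 2.68 and 1.01 RPKM in the P2 libraries, 2.03 and 5.32 in those of P4, 40.2 and 41.8 in those of P10, and 21.4 and 20.0 in those of P28. Its change between P10 (41.0 ± 1.12) and P4 (3.67 ± 2.33) was 3.26 ± 0.55 (SE, adjusted p = 0.00073). Peak 1, 6774 bp to the other side of the start (chr11:101658398-101658767), had 5.79 and 5.66 RPKM in the P2 libraries, 1.72 and 3.86 in those of P4, 4.68 and 1.35 in those of P10, and 2.93 and 2.21 in those of P28. It was highest at P2, and no comparison called it on the deposited scales. The authors' annotation places Arl4d peak 1 in an exon, although it is upstream of the Arl4d start.

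Arl13b is a GTPase of the ciliary membrane and the exchange factor of Arl3. It carried 3 peaks on chr16, at the promoter (peak 3) and in intron 1, 6522 bp (peak 2) and 14164 bp (peak 1) from the annotated start. Peak 2 (chr16:62840196-62840471) had 2.28 and 1.38 RPKM in the P2 libraries, 0 and 5.69 in those of P4, 19.4 and 19.9 in those of P10, and 2.81 and 5.93 in those of P28. The P10 libraries stood above the other 6. P10 averaged 19.7 ± 0.339 RPKM and P4 2.85 ± 4.02, a log2 change of 3.00 ± 0.65 (adjusted p = 0.0052). Peak 1 rose by 2.06 ± 0.62 (14.1 ± 6.71 against 3.57 ± 4.22 RPKM, adjusted p = 0.028). The promoter peak had 10.7 ± 1.95 RPKM at P10 and 3.94 ± 3.89 at P4 and did not pass (adjusted p = 0.058).

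Rab43, a GTPase of Golgi traffic, rose at its promoter peak (chr6:87811823-87812327), the one whose sequence holds TGCTGA and GGATTA. It had 5.24 and 4.90 RPKM in the P2 libraries, 4.02 and 17.5 in those of P4, 42.4 and 29.4 in those of P10, and 10.7 and 5.51 in those of P28. The P4 libraries were far apart and both lay below those of P10 (log2 change 1.91 ± 0.60, adjusted p = 0.031). Rabepk, an effector of Rab9 in transport from endosomes to the Golgi, rose at peak 1 in intron 2 (chr2:34796861-34797179), with 5.93 and 10.6 RPKM at P10, against 1.19 and 1.79 at P4 (1.85 ± 0.46, adjusted p = 0.0090). Its stronger peak 2, 2226 bp upstream of the annotated start nearest to it (chr2:34802138-34802415), averaged 37.6 ± 6.17 RPKM at P10 and 21.7 ± 17.2 at P4 and was not called. The authors' annotation classes the place of peak 2 as Downstream, although it is upstream of that start, so its gene is uncertain. Arl4c, related to Arl4d, had 7.46 and 8.86 RPKM at P10, against 0 and 5.07 at P4, 3650 bp upstream of its start (1.89 ± 0.63, adjusted p = 0.046). Rab30, a Golgi GTPase, had 14 reads at P10 and 2 at P4, a 7.25-fold ratio of scaled reads with a 95% counting interval of 1.67 to 65.7 (adjusted p = 0.037).

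Rab38, known for melanosome biogenesis, was the member that fell. Its peak was intergenic, 105720 bp from the start site (chr7:88536114-88536514). It had 4.40 and 4.74 RPKM in the P2 libraries, 3.17 and 9.26 in those of P4, 0.786 and 1.56 in those of P10, and 1.16 and 1.22 in those of P28. Both later ages lay below both earlier ones. The change between P10 and P4 was -1.61 ± 0.48 (SE, adjusted p = 0.025).

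**Figure D2:**
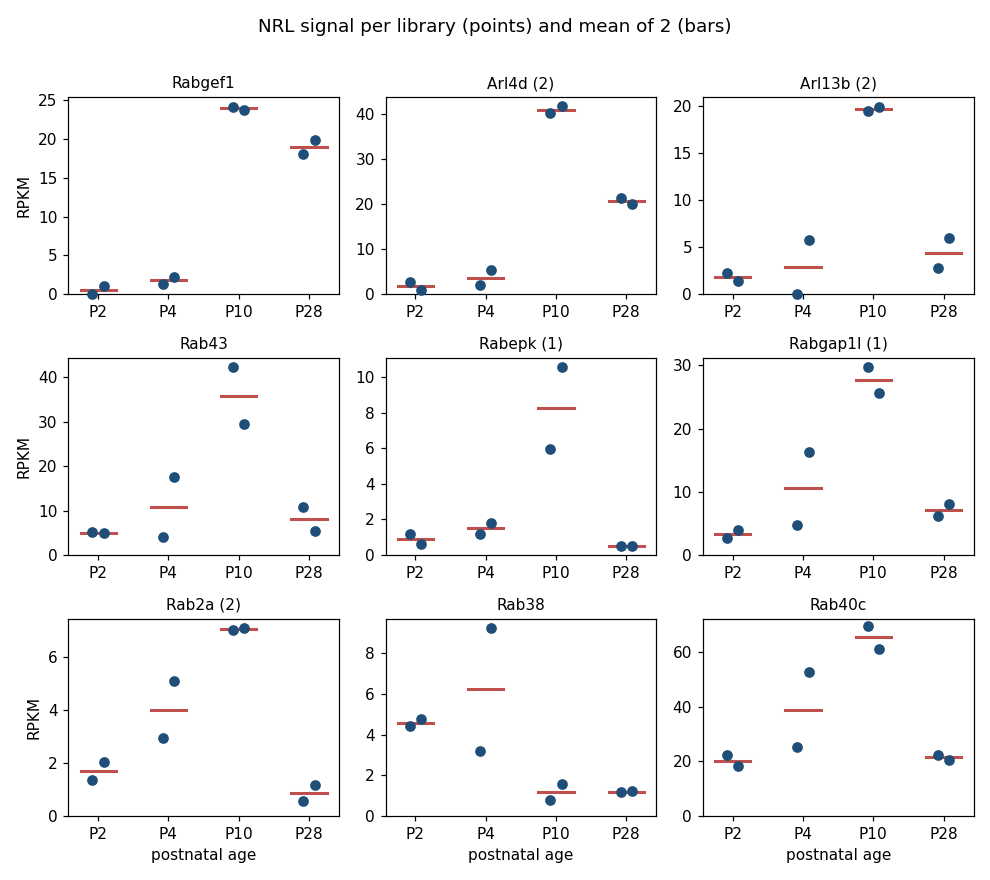
NRL signal in RPKM (vertical axes, each panel with its own range from 0) at 9 member peaks by postnatal age, with a point for each library and a bar for the mean of the 2 libraries. Rabgef1 and Arl4d peak 2 are high at P10 and P28, most other panels are high at P10, and Rab38 is high at P2 and P4.

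The rise between P4 and P10 was shared by most peaks of the table. Centring each library on its median, which takes 0.71 off every log2 change between P10 and P4, left 3 members higher (2.88% of all peaks) and 1 lower (3.26%): Arl4d peak 2 (2.55, adjusted p = 0.0029), Rabgef1 (2.46, adjusted p = 0.0045), Arl13b peak 2 (2.29, adjusted p = 0.032) and Rab38 (-2.32, adjusted p = 0.0066). The count of 8 also moved with single libraries. For fits without a library, here and below, the share of all peaks called is not given. Leaving out P4 replicate 3 gave 2, and leaving out P4 replicate 4 gave 19. Without P10 replicate 4 it was 3, without P10 replicate 1 it was 4, and it was 13 without P2 replicate 3 or either P28 library. Rabgef1 and Arl4d peak 2 stayed called without any 1 library. Without P4 replicate 3, adjusted p was 0.107 at Arl13b peak 2 and Rabepk peak 1, 0.197 at Rab30, 0.272 at Rab43, 0.372 at Arl13b peak 1 and 0.587 at Arl4c. Without P10 replicate 1 it was 0.068 at Arl13b peak 1, 0.137 at Arl4c, 0.236 at Rab38, 0.242 at Rab43 and 0.315 at Rab30. Without P10 replicate 4 it was 0.0803 at Rab38, 0.105 at Rab43, 0.115 at Rab30, 0.156 at Arl4c, 0.165 at Rabepk peak 1 and 0.219 at Arl13b peak 1. Without P4 replicate 4 it was 0.0635 at Rab30 and 0.135 at Rab38.

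**Figure D3:**
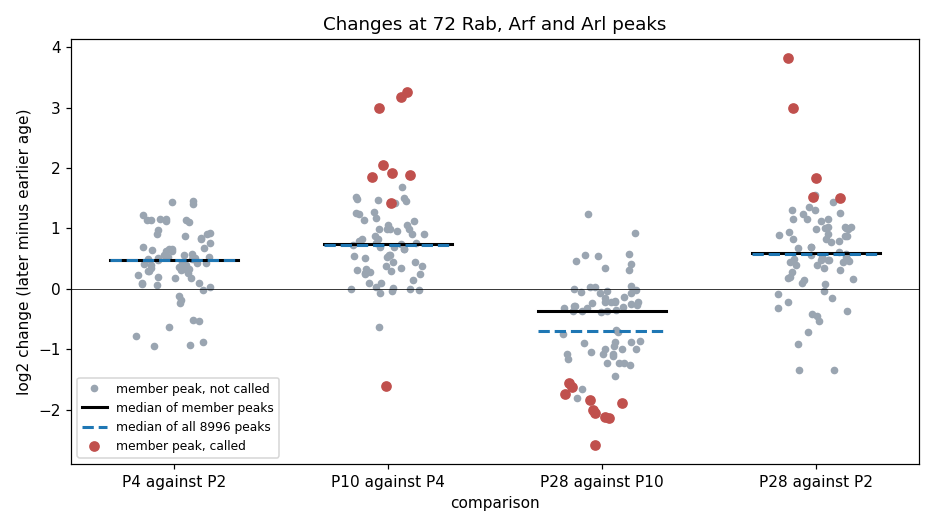
Log2 changes (later minus earlier age, on the log2(RPKM + 1) scale) of the 72 member peaks in the 4 comparisons, with called peaks in red, the members' median as a solid line and the median of all 8996 peaks as a dashed line. The medians lie together except between P28 and P10, where the members' is -0.38 and that of all peaks is -0.69.

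Between P28 and P10, signal fell at 10 member peaks (13.9%) and rose at none, where 20.7% of all peaks fell and 1.29% rose. At an unadjusted p under 0.05, 2 member peaks were higher and 21 lower, against 3.01% and 33.9% of all peaks, and limma-voom on whole reads also called none higher. The peaks that fell belonged to the Rab GTPases Rab2a (peaks 2 and 4), Rab43 and Rab40c. The others were peak 1 of Rabepk, Rabgap1l and Rabggta and the peak of Rab3il1 (Rab partners), the Arfgef2 peak and Arl13b peak 2. The median member changed by -0.38 on the log2 scale, against -0.69 for all peaks. Every P28 library was below every P10 library at 39 members, against 61.7% of all peaks, and above at 6, against 10.1%.

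Rabepk peak 1 held 2 reads at P28 and 39 at P10, a 17.1-fold lower ratio of scaled reads (95% counting interval 4.42 to 146, adjusted p = 0.00067). Its P28 libraries had 0.486 and 0.513 RPKM. Peak 2 of the same gene had 18.4 and 21.2 RPKM at P28, against 41.9 and 33.2 at P10, and was not called. The signal assigned to Rabepk lay mostly in peak 2 at every age, not at P28 alone. From P2 to P28 peak 2 averaged 7.84, 21.7, 37.6 and 19.8 RPKM, and peak 1 averaged 0.890, 1.49, 8.24 and 0.499. Arfgef2 (BIG2), an exchange factor for Arf proteins at the trans-Golgi network, had 1 read at P28 and 15 at P10 in an exonic peak (chr2:166835730-166835923), a 13.1-fold lower ratio (2.02 to 552, adjusted p = 0.0036).

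Rab2a works between the endoplasmic reticulum and the Golgi, and its 4 peaks were all upstream of the gene, at 117334, 111537, 104442 and 25032 bp. Peak 2 (chr4:8423546-8424107) had 1.34 and 2.03 RPKM in the P2 libraries, 2.94 and 5.08 in those of P4, 7.01 and 7.10 in those of P10, and 0.551 and 1.17 in those of P28. Its P28 libraries lay below all others, and the change between P28 (0.858 ± 0.434) and P10 (7.06 ± 0.067) was -2.14 ± 0.46 (SE, adjusted p = 0.0026). Peak 4 had 1 read at P28 and 8 at P10, a 7.0-fold lower ratio (0.938 to 311, adjusted p = 0.028), an interval that includes no change. Peaks 1 and 3 averaged 2.26 ± 0.446 and 5.21 ± 3.84 RPKM at P28, against 5.85 ± 0.727 and 18.5 ± 0.939 at P10, and did not pass (adjusted p = 0.090 and 0.068). All 4 peaks had their highest mean at P10.

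Rab43 and Arl13b peak 2, which had risen between P4 and P10, fell between P10 and P28. Rab43 averaged 8.12 ± 3.69 RPKM at P28 and 35.9 ± 9.22 at P10 (-2.06 ± 0.60, adjusted p = 0.018). Arl13b peak 2 averaged 4.37 ± 2.21 RPKM at P28 and 19.7 ± 0.339 at P10 (-2.01 ± 0.65, adjusted p = 0.033). With Rabepk peak 1 they made 3 members called in both steps, which share the P10 libraries.

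Rabgap1l, a GTPase-activating protein with a TBC domain, had 6.15 and 8.03 RPKM at P28, against 29.8 and 25.7 at P10, at its promoter peak 1 (chr1:160287145-160287572). The groups did not overlap (-1.83 ± 0.57, adjusted p = 0.025). Rabggta, the alpha subunit of Rab geranylgeranyl transferase, had 2.66 and 2.81 RPKM at P28, against 13.5 and 9.64 at P10, at peak 1, 238 bp from its start (chr14:55721706-55721938; -1.74 ± 0.50, adjusted p = 0.017). The promoter peak of Rabggtb, the beta subunit, had 2.46 ± 0.0325 RPKM at P28 and 3.19 ± 0.94 at P10 and was not called. Rab3il1 averaged 13.9 ± 2.14 RPKM at P28 and 45.3 ± 8.35 at P10 (-1.63 ± 0.55, adjusted p = 0.036). Rab40c averaged 21.5 ± 1.27 RPKM at P28 and 65.4 ± 5.93 at P10 (-1.56 ± 0.54, adjusted p = 0.041).

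Centring the libraries adds 0.60 to every log2 change between P28 and P10. It left 4 members lower (8.56% of all peaks), which were Rabepk peak 1 (adjusted p = 0.014), Rab2a peak 2 (0.026), Arfgef2 (0.045) and Rab43 (0.0485), and made 2 higher (4.28%). Those were Arl4a peak 1 (1.84, adjusted p = 0.021) and the promoter of Rab23, a repressor of Hedgehog signalling (1.53, adjusted p = 0.034). Rab23 had 3.15 and 3.33 RPKM at P28, against 0.963 and 1.52 at P10. Rabepk peak 1 and Rab2a peak 2 stayed called without any 1 library. The count of 10 was 2 without P10 replicate 4, 3 without P10 replicate 1, 5 without P28 replicate 4 and 6 without P28 replicate 3, and 1 member was called higher without either P2 library. Without P10 replicate 1, adjusted p was 0.117 at Arl13b peak 2, 0.159 at Rab2a peak 4, 0.163 at Rab3il1, 0.167 at Rabggta, 0.174 at Rab43, 0.178 at Rabgap1l and 0.269 at Rab40c. Without P10 replicate 4 it was 0.0664 at Rabggta, 0.0683 at Rab43, 0.0836 at Rab2a peak 4, 0.0935 at Arfgef2, 0.101 at Arl13b peak 2, 0.113 at Rabgap1l, 0.184 at Rab40c and 0.252 at Rab3il1. Without P28 replicate 3 it was 0.0863 at Rabggta, 0.110 at Arl13b peak 2, 0.142 at Rabgap1l, 0.170 at Rab40c and 0.213 at Rab3il1. Without P28 replicate 4 it was 0.0512 at Arfgef2, 0.0682 at Rabgap1l, 0.0746 at Rabggta, 0.132 at Rab3il1, 0.135 at Rab2a peak 4, 0.162 at Rab43 and 0.218 at Rab40c. Without P2 replicate 3 or 4 Rab40c was at 0.055 and 0.0527.

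**Figure D4:**
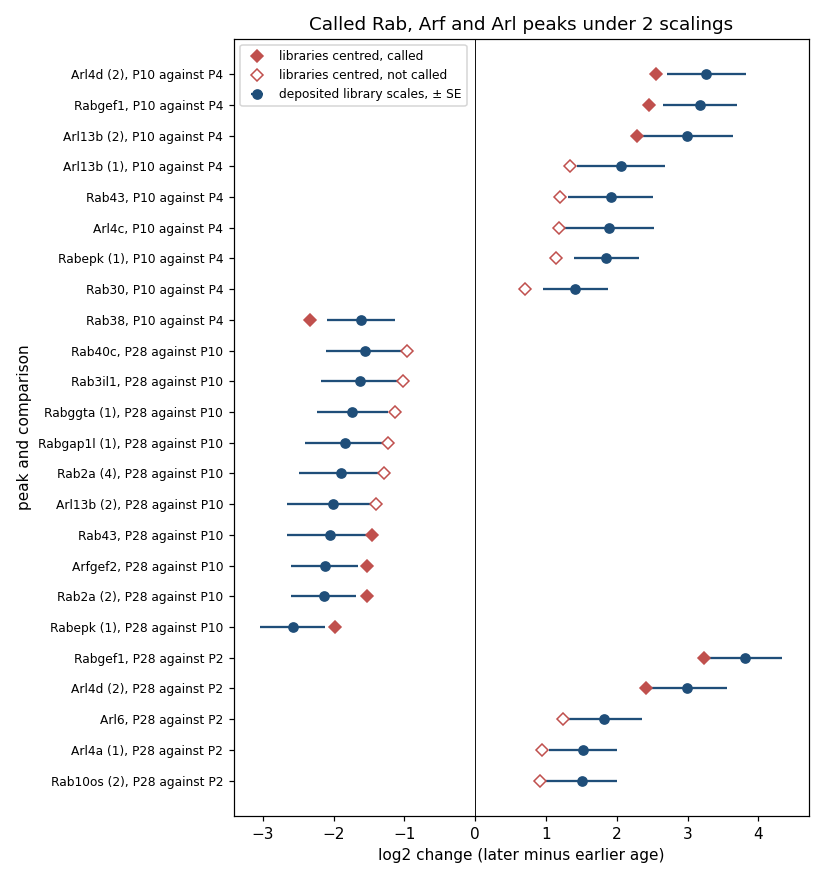
The 24 called changes of member peaks (rows, grouped by comparison) as log2 change, later minus earlier age, with the deposited library scales (circles, with standard error) and with libraries centred on their median (diamonds, filled where still called). All keep their side of 0 after centring, and 10 stay called.

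Over the whole course, between P28 and P2, signal rose at 5 member peaks (6.94%) and fell at none, where 9.64% of all peaks rose and 3% fell. At an unadjusted p under 0.05, 20 member peaks were higher and 2 lower, against 25.1% and 5.81% of all peaks, and limma-voom also called none lower. The members that rose were Rabgef1, Arl4d peak 2, Arl6, Arl4a peak 1 and Rab10os peak 2, with no Rab GTPase among them. The median log2 change was 0.59, against 0.57 over all peaks. Every P28 library was above every P2 library at 39 members, against 52.5% of all peaks, and below at 6, against 11.8%.

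Rabgef1 held 45 reads at P28 and 1 at P2, a 47.3-fold ratio of scaled reads (95% counting interval 8.06 to 1910, adjusted p = 8.95e-05). Arl4d peak 2 averaged 20.7 ± 0.984 RPKM at P28 and 1.85 ± 1.18 at P2 (3.00 ± 0.55, adjusted p = 0.0011). These were also among the peaks that rose between P4 and P10. Arl6, which brings the BBSome complex to ciliary membranes, had 2.87 and 6.06 RPKM at P28, against 0 and 1.17 at P2, at its promoter (chr16:59632498-59632659), or 9 reads against 1 (9.45-fold, 1.31 to 414, adjusted p = 0.026). Its highest values, 9.73 and 10.8 RPKM, were at P10. Arl4a peak 1 lay 371664 bp from its gene (chr12:39665576-39665703) and had 7.26 and 6.40 RPKM at P28, against 1.97 and 1.49 at P2, or 11 reads against 3 (3.85-fold, 1.02 to 21.5, adjusted p = 0.037). Rab10os peak 2 had 16 reads at P28 and 3 at P2 (5.60-fold, 1.60 to 30.0, adjusted p = 0.047).

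After centring, which takes 0.58 off every log2 change between P28 and P2, Rabgef1 (adjusted p = 0.00034) and Arl4d peak 2 (0.0013) stayed called (3.27% of all peaks rose). Called lower (7.26% of all peaks) were Rab38 (-1.93, adjusted p = 0.0082), Arfgef2 (-1.93, adjusted p = 0.017) and Arl4d peak 1 (-1.50, adjusted p = 0.042). Rabgef1 and Arl4d peak 2 also stayed called without any 1 library. The count of 5 was 3 without P10 replicate 1 or P28 replicate 4, 9 without P4 replicate 3 and 10 without P4 replicate 4. The count of lower peaks was 1 without either P4 library. At Arl6 the adjusted p was 0.185 without P2 replicate 3 and 0.149 without P28 replicate 4. At Arl4a peak 1 it was 0.144 without P2 replicate 4, 0.0556 without P10 replicate 1, 0.125 without P28 replicate 3 and 0.0775 without P28 replicate 4. At Rab10os peak 2 it was 0.232 and 0.0578 without P2 replicate 3 and 4, 0.0681 and 0.0694 without P10 replicate 1 and 4, and 0.323 without P28 replicate 4.

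Between P4 and P2, no member peak was called in either direction, where 0% of all 8996 peaks were. At an unadjusted p under 0.05, 8 members were higher and 0 lower, against 14.4% and 0.778% of all peaks, and limma-voom called no member. The smallest adjusted p among members was 0.193, and over all peaks it was 0.0557. The median log2 change was 0.48 among members and 0.48 over all peaks, and centring takes 0.47 off each. Every P4 library was above every P2 library at 26 members, against 40.1% of all peaks, and below at 3, against 3.91%. The count moved without P4 replicate 3, the library with the smaller share of reads in peaks at that age. That fit rests on P4 replicate 4 alone for P4, and the share of all peaks called in it is not given.

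The genes best known from transport to the outer segment had promoter peaks that passed the test in no comparison. Rab8a, which acts in the last step of delivery to the outer segment, had its peak on the promoter in all 4 lists and averaged 2.89 ± 1.23, 4.39 ± 2.93, 6.19 ± 1.97 and 4.44 ± 0.26 RPKM from P2 to P28 (SD, n = 2 at each age). Rab11a, of the same route, averaged 1.89 ± 1.6, 2.01 ± 0.023, 1.97 ± 0.324 and 3.33 ± 0.544 RPKM, and was listed at P28 alone. Arf4, which sorts outer segment cargo at the trans-Golgi, averaged 1.56 ± 0.546, 2.95 ± 0.833, 4.41 ± 1.41 and 4.06 ± 0.364 RPKM over the same ages.

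Rab28, whose human counterpart is mutated in cone-rod dystrophy, averaged 1.60 ± 0.459, 3.37 ± 0.681, 4.74 ± 2.2 and 3.98 ± 2.12 RPKM from P2 to P28. Arl2bp, a partner of Arl2 found at the cilium base, had the strongest promoter peak of the cilium genes. It had 4.48 and 4.35 RPKM in the P2 libraries, 3.55 and 13.0 in those of P4, 22.0 and 19.6 in those of P10, and 6.29 and 10.8 in those of P28. Its P10 libraries stood above all others without passing the test (adjusted p = 0.078 against P4 and 0.12 at P28 against P10). Arl2 itself averaged 1.59 ± 0.623, 2.64 ± 1.56, 5.46 ± 1.88 and 4.75 ± 3.45 RPKM.

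Among the general Rabs, Rab3a, the synaptic vesicle GTPase, averaged 4.39 ± 1.61, 9.80 ± 6.33, 13.5 ± 0.313 and 6.39 ± 1.57 RPKM from P2 to P28. Rab6a, of the Golgi, averaged 2.46 ± 1.42, 3.97 ± 1.49, 8.89 ± 3.12 and 4.89 ± 0.536 RPKM. Rab5a, the early-endosome GTPase that Rabgef1 activates, had means that lay close together, at 4.21 ± 1.27, 4.35 ± 1.46, 4.63 ± 0.0948 and 4.83 ± 0.79 RPKM. Rab7, of late endosomes, averaged 3.00 ± 0.311, 3.94 ± 0.326, 4.97 ± 1.34 and 7.84 ± 0.104 RPKM, with both P28 libraries above all others. Rab10, which serves exocytosis, averaged 1.10 ± 1.1, 3.28 ± 1.37, 3.61 ± 0.43 and 3.01 ± 0.814 RPKM. None of these 5 was called in any comparison.

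Rab4a, Rab4b, Rab34, Rab39 and Rabl3 had promoter peaks that were called in no comparison. Rab4b, a GTPase of fast recycling, averaged 3.76 ± 1.58, 6.21 ± 4.18, 10.4 ± 0.67 and 3.16 ± 0.124 RPKM from P2 to P28, and its P28 and P10 libraries were apart (adjusted p = 0.052). Its paralogue Rab4a averaged 1.37 ± 0.0954, 2.31 ± 0.0263, 5.60 ± 0.244 and 2.21 ± 1.12 RPKM (adjusted p = 0.084 for P28 against P10). Rabl3, a Rab-like protein, averaged 2.26 ± 0.468, 3.00 ± 0.573, 5.5 ± 0.942 and 7.03 ± 1.26 RPKM, with its highest mean at P28. The adjusted p for P28 against P2 was 0.070 there. Rab34, which acts in the formation of primary cilia, averaged 2.94 ± 1.61, 4.36 ± 1.04, 5.37 ± 1.23 and 3.97 ± 0.649 RPKM. Rab39 averaged 0.922 ± 0.832, 3.99 ± 1.84, 2.15 ± 0.688 and 3.39 ± 1.32 RPKM, and its highest mean was at P4.

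Among the other Rab partners, Rabac1, a prenylated Rab acceptor, had the highest signal. It averaged 2.83 ± 1.81, 5.05 ± 2.75, 11 ± 1.01 and 8.40 ± 2.43 RPKM from P2 to P28 (adjusted p = 0.095 for P28 against P2). Rab3gap2, a subunit of the complex that regulates Rab3 and Rab18, averaged 2.42 ± 1.83, 4.28 ± 2.88, 5.22 ± 1.47 and 6.79 ± 0.73 RPKM, with its highest mean at P28. Rabep1 (rabaptin-5), which binds the Rabgef1 protein and Rab5, averaged 2.46 ± 0.484, 3.95 ± 0.591, 4.06 ± 2.31 and 2.87 ± 0.2 RPKM. The Rabep1 promoter thus did not show the large difference between P10 and P4 that was measured at the Rabgef1 intron, although the difference between these peaks was not tested.

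Among the Arf genes, Arf2 averaged 3.63 ± 1.36, 7.37 ± 2.87, 9.85 ± 3.55 and 4.78 ± 0.601 RPKM from P2 to P28. Arf1, the main Arf of the Golgi, averaged 2.15 ± 0.619, 2.68 ± 2.16, 3.34 ± 1.68 and 3.40 ± 1.65 RPKM. Arfgap2, which turns Arf1 off on coated vesicles, averaged 3.98 ± 2.12, 6.86 ± 3.46, 13.3 ± 4.24 and 6.87 ± 2.67 RPKM. None of the 3 was called.

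Among the Arl genes, Arl5b, a GTPase of the trans-Golgi, carried a promoter peak (peak 1) and a stronger intronic peak (peak 2), 930 bp from the transcript start nearest to it. The intronic peak averaged 4.56 ± 2.67, 8.27 ± 7.13, 17.4 ± 0.0613 and 14.3 ± 8.19 RPKM from P2 to P28, and the promoter peak 2.27 ± 0.886, 2.93 ± 0.243, 5.75 ± 1.84 and 5.53 ± 0.273. Neither was called (adjusted p = 0.12 and 0.15 for P28 against P2). The second peak of Arl4a, at its promoter, averaged 3.99 ± 1.86, 3.81 ± 0.983, 5.89 ± 0.276 and 5.02 ± 0.593 RPKM. The distant peak averaged 1.73 ± 0.340 RPKM at P2 and 6.83 ± 0.612 at P28. The difference between these peaks was not tested. At Rab10os the promoter peak averaged 2.21 ± 1.28, 6.02 ± 2.59, 11.9 ± 3.32 and 4.56 ± 1.68 RPKM, and all 3 peaks of that antisense RNA had their highest mean at P10.

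A wider list of genes that work with these GTPases (exocyst, TRAPP and DENN proteins, TBC-domain GTPase-activating proteins, cytohesins, Arf regulators, tethers and the cargo carriers Unc119, Pde6d and Rp2) had 82 peaks at 55 genes. Between P10 and P4, 15 of the 82 rose (18.3%, against 15.6% of all peaks) and none fell (1.51% of all peaks), at 11 genes that included Exoc2, Exoc4 and Exoc8 of the exocyst and Cyth2, a cytohesin. After centring none of the 82 was called, against 2.88% of all peaks higher and 3.26% lower. Between P28 and P10, 18 fell (22.0%, against 20.7% of all peaks) and 2 rose (2.44%, against 1.29%). Those that fell included 3 peaks each of Psd2 and Iqsec1, both exchange factors of Arf6, and those that rose were at Adap1 and Eea1, the early-endosome tether. Between P28 and P2, 7 rose (8.54%, against 9.64% of all peaks) and 2 fell (2.44%, against 3%). Between P4 and P2 none was called, where 0% of all peaks were. After centring, 10 were lower and 5 higher between P28 and P10, against 8.56% and 4.28% of all peaks. Between P28 and P2, 3 were then higher and 6 lower, against 3.27% and 7.26%. The shares called on the deposited scales thus lay near those of all peaks. The list was chosen with earlier results known, so these counts are a description.

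Among the strong peaks of this list were those of Optn, Unc119 and Psd2. Optn (optineurin), a Rab8 effector, averaged 88.7 ± 13.7 RPKM at P28 and 16.2 ± 8.31 at P2 (log2 change 2.46 ± 0.57, adjusted p = 0.0063). That peak lay 19761 bp from the start of Optn, and it averaged 88.69 ± 25.45 RPKM at P10. Unc119, which carries lipid-anchored proteins to the outer segment, averaged 67.0 ± 17.5 RPKM at P10 and 19.5 ± 11.9 at P4 at a peak 1021 bp from its start (1.84, adjusted p = 0.026). Psd2 averaged 11.3 ± 0.071 RPKM at P28 and 101.7 ± 1.82 at P10, at a peak 46331 bp from its start (-3.06 ± 0.56, adjusted p = 0.00080).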

How the data were processed

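NRL CUT&RUN was analysed in 8 libraries, 2 per age, grouped by the age in the labels. Per the submitters' processing notes the tools included MACS2 2.2.5, Bowtie2 2.3.5.1 and bedtools 2.29.0, with GRCm38.p6 named as a build. The deposited peak table holds RPKM, as its values show. Each column had been divided by widths displaced by a further 39 rows, so whole reads were recovered (100% of values within 0.001 of a whole number) and RPKM was rebuilt from them with the true width of the peak and the deposited scale. The deposited lists, 1 per age, hold the authors' signal and score per peak, and only the signal was used, to rank peaks. Peak annotation is the authors'.

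Log2(RPKM + 1) was fitted with limma 3.58.1 in R 4.3.3 over all 8996 peaks and 8 libraries, with age as factor, trend and robust empirical Bayes, no filter, 4 residual degrees of freedom and p-values adjusted by Benjamini and Hochberg's method. The fit was also run on simulated counts with known changes at P10. Those counts lacked the differences between libraries in the share of reads in peaks, so that run does not vouch for the calls. Nothing says that replicates came from separate animals, so p-values measure the spread between these libraries, which may be technical. Ratios with 1 to 3 reads have exact 95% intervals, which cover counting error only. Named peaks were, per comparison, up to 6 called higher and 6 lower with no overlap, the 6 strongest members and a set of trafficking genes with known roles; the other members were added after their values were seen. One rod marker is not reported here. Members and lists were chosen with earlier results of these data known. All 58 genes matched RefSeq identifiers and 51 had a RefSeq promoter. Alternatives were another pseudocount, the values as deposited, centring, a filter of 10 reads, limma-voom, a replicate block and leaving out each library. Python 3.11.15, pandas 2.3.3, NumPy 2.4.6, SciPy 1.17.1 and Matplotlib 3.10.9 were used.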

Additional observations from a re-analysis of the deposited data

How the results depend on the processing

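Each of the 24 called changes was recomputed under 14 alternatives. Of these 336 values 212 kept the call, 124 lost it and 0 changed sign. Part of this tally was fixed in advance. The filter on reads removed no peak, so its 24 values repeated the main fit. Leaving out a library of an age outside a comparison left the log2 change as it was. There the sign could not change, and only the adjusted p could move. Kept under all 14 were Rabgef1 and Arl4d peak 2 between P28 and P2, and Rabepk peak 1 between P28 and P10. Rabgef1 between P10 and P4 was lost at a pseudocount of 0.1 alone (adjusted p = 0.090).

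The count of member peaks called depended on the settings. Between P10 and P4, 8 were higher and 1 lower. The higher count was 0 at a pseudocount of 0.1, 3 after centring, 14 with limma-voom and 3 with a replicate block, and the lower count was 0 at a pseudocount of 0.1, as deposited and with the block. Between P28 and P10, 10 were lower and 0 higher. The lower count was 3 at a pseudocount of 0.1, 6 as deposited, 4 after centring and 3 with the block, and the higher count was 2 after centring. Between P28 and P2, 5 were higher and 0 lower. The higher count was 2 at a pseudocount of 0.1, 2 as deposited and 2 after centring, and the lower count was 3 after centring. Leaving out 1 library gave 0 to 5 higher for P4 against P2, 2 to 19 higher and 0 to 1 lower for P10 against P4, 0 to 1 higher and 2 to 14 lower for P28 against P10, and 3 to 10 higher and 0 to 1 lower for P28 against P2. The cause of these shifts was not tested. Among these settings the share of all peaks called is given for centring alone, so the shifts are not read as particular to the members. A filter of 10 reads removed no peak. In the upper part of each list by signal, cut at its median, the members numbered 7, 15, 35 and 22 from P2 to P28, and a stricter overlap moved none.

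The replicate numbers are not said to pair libraries: replicate 4 minus replicate 3 differences correlated with r of 0.085 between P2 and P4, 0.05 between P2 and P28 and 0.029 between P4 and P28. With the block, P10 rests on replicate 4, since number 1 occurs once. The median member peak held 4 to 18.5 reads per library, which limits the precision of weak peaks.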
